A study of Arabidopsis thaliana with 2 samples.

Results

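The genes described here are the plant defensins of the PDF1 group and the 4 oxygenases that jasmonate induces, 10 loci of *Arabidopsis thaliana* chosen by locus number. Named array probes stood for 5 of them, the defensin PDF1.2 (AT5G44420) and all 4 oxygenases (AT3G11180, AT5G05600, JRG21, which is AT3G55970, and AT2G38240), out of 9253 genes with a named probe in all. The PDF1 loci AT5G44430 (PDF1.2c), AT2G26020 (PDF1.2b), AT1G75830 (LCR67, also called PDF1.1), AT2G26010 (PDF1.3) and AT1G19610 (PDF1.4) had 0 named probes and were not analysed here. The loci were chosen with their ratios on these arrays known, because PDF1.2 was high in both plants and the jasmonate readouts differed between the plants. The ratios of these genes are therefore given as a description, with no test.

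The arrays compared total RNA from rosette leaves of plant 44 and plant 36 with that of wild type, on 1 array of 2 colours each. Both were T1 plants, which are primary transformants, 2 weeks old and grown untreated in 16 h light and 8 h dark. Each carried a 35S transgene for NST1, a transcription factor of the NAC family that turns on secondary wall formation. The 35S promoter is active in most plant cells, each line was represented by 1 plant, and the labels say that over-expressors form thick secondary walls in the wrong places of shoot organs. Wild type counted as 1 control sample, so its own spread is not measured.

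Jasmonate is a lipid-derived hormone of the response to wounding, chewing insects and necrotrophic fungi. Its active conjugate with isoleucine binds the receptor COI1 and leads to the breakdown of JAZ repressors. This frees MYC factors, which drive wound genes, and the ERF branch, which jasmonate and ethylene drive together and whose usual marker is PDF1.2. Defensins are small secreted proteins, rich in cysteine, that act against fungi. The jasmonate-induced oxygenases belong to the 2-oxoglutarate-dependent dioxygenases and hydroxylate jasmonic acid, which takes it out of the pool for the active conjugate. Salicylate signalling often opposes PDF1.2.

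A value here is the deposited log ratio of a probe, read as log10 of over-expressor over wild type, so 0 means equal and 0.30 means 2-fold higher. Its base, centring and direction are not stated in the sources used here, and folds hold only if the base is 10. Higher in the over-expressor is the likely meaning of a positive value, from the dyes (over-expressor in Cy5, wild type in Cy3) and the titles. NST1 had 0 named probes, so the direction was not checked on it, and 0 arrays had the dyes swapped, so dye and genotype cannot be told apart. Scanner intensities were not used here, so how far each signal rose above background is not known, and precision is limited by the number of arrays. In whole leaves, a change in the number of cells of a type and a change of RNA per cell cannot be told apart.

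PDF1.2 lay at 1.07 in plant 44 and at 1.11 in plant 36, which is 11.7-fold and 13.0-fold above wild type. It was high in both plants by nearly the same amount, with a mean of 1.09 ± 0.031 (SD, n = 2 plants). Among 9335 probes with 1 gene, it ranked 18th in plant 44 and 5th in plant 36. PDF1.2b and PDF1.2c are close relatives of PDF1.2, and whether this probe also reads them is not known, since no probe sequence was used here.

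Of the oxygenases, AT5G05600 also lay high in both plants, at 0.620 in plant 44 and 0.541 in plant 36, or 4.17-fold and 3.48-fold. Its mean was 0.581 ± 0.056 (SD, n = 2 plants), and its rank was 80 in plant 44 and 77 in plant 36. Its place among all genes was thus nearly the same on both arrays.

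The other oxygenases were uneven. AT2G38240 lay at 1.16 in plant 44, or 14.5-fold, and at 0.211 in plant 36, or 1.63-fold. In plant 44 it was the highest of the 5 measured genes and ranked 11th of all, whereas in plant 36 its rank was 721. JRG21, named for its induction by jasmonate, lay at 0.812 in plant 44, or 6.49-fold, and at 0.165 in plant 36, or 1.46-fold. Its rank was 40 in plant 44 and 1064 in plant 36. AT3G11180 lay at 0.187 in plant 44, or 1.54-fold, and at 0.038 in plant 36, or 1.09-fold, and was the lowest of the 5 in both plants.

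**Figure D1:**
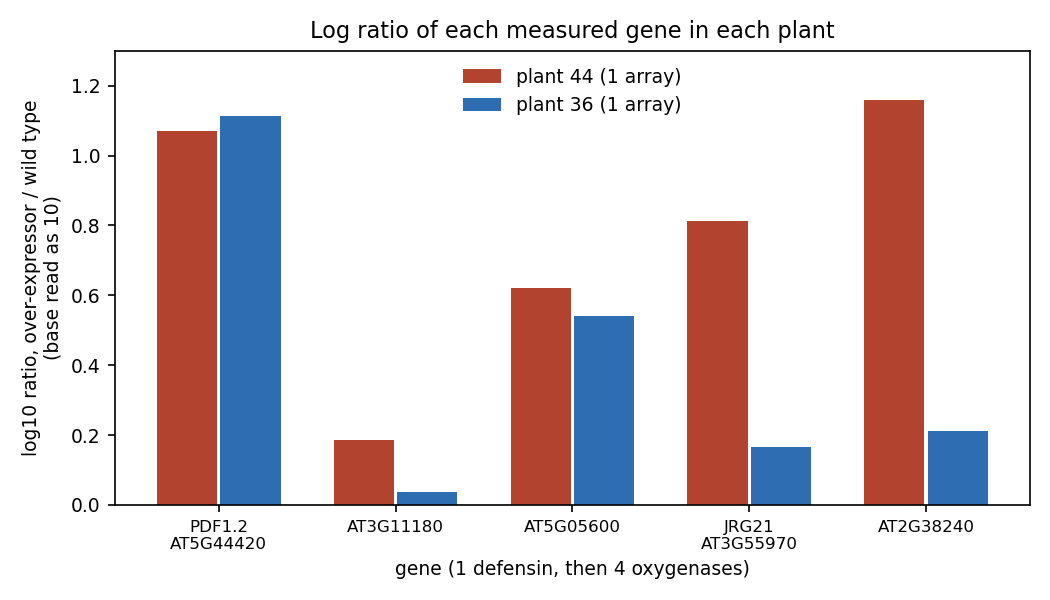
Bars give the log10 ratio of over-expressor to wild type (vertical axis, from 0) for the defensin PDF1.2 and the 4 oxygenases (horizontal axis), with plant 44 left of plant 36 and 1 array for each bar. PDF1.2 and AT5G05600 stand at similar heights in both plants, while AT2G38240 stands at 1.16 in plant 44 and 0.211 in plant 36.

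All 5 measured genes lay above 0 in both plants, as did 42.2% of the probes with 1 gene. At or beyond 2-fold higher lay 4 of the 5 in plant 44, against 4.46% of all probes with 1 gene, and 2 of the 5 in plant 36, against 3.93%. Both PDF1.2 and AT5G05600 passed that limit in both plants, as 2.71% of the probes did. These shares are given beside a choice made on the same ratios, so nothing is read from them. The median of the 4 oxygenases was 0.716 in plant 44 and 0.188 in plant 36, where the median of all probes with 1 gene was 0.00 and 0.002.

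By their means, the genes ran from PDF1.2 through AT2G38240 at 0.686 ± 0.671, AT5G05600 and JRG21 at 0.489 ± 0.458 to AT3G11180 at 0.113 ± 0.105 (SD, n = 2 plants). The plants' values of each gene overlapped in range with those of the next in this order. Compared within each plant, JRG21 lay above AT3G11180 in both. Every other pair of neighbours in this order changed places between the plants. PDF1.2 did lie above AT5G05600 and AT5G05600 above AT3G11180 without overlap. The order in plant 44 alone was AT2G38240, PDF1.2, JRG21, AT5G05600 and AT3G11180. In plant 36 it was PDF1.2, AT5G05600, AT2G38240, JRG21 and AT3G11180.

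**Figure D2:**
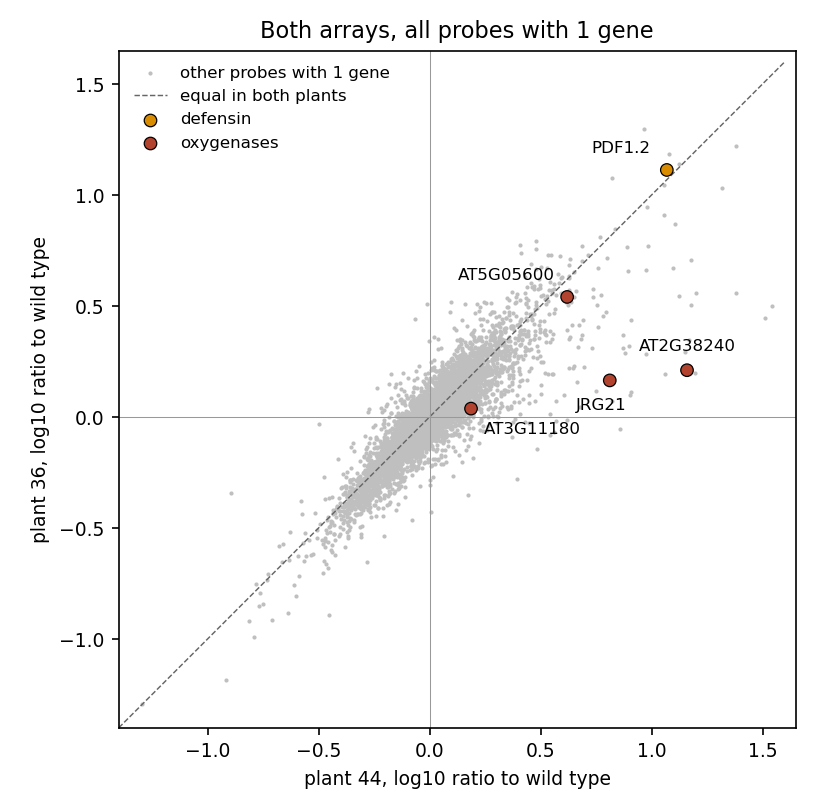
Each point is a probe with 1 gene, at its log10 ratio to wild type in plant 44 (horizontal axis) and in plant 36 (vertical axis), and the dashed line marks equal values. PDF1.2 (orange) and AT5G05600 (red) lie close to that line, whereas JRG21 and AT2G38240 (red) lie below it, far to the right.

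The plants were next set against each other gene by gene, as plant 44 minus plant 36, with no test because each had 1 array. The difference was 0.949 for AT2G38240, an 8.89-fold higher ratio in plant 44, and 0.647 for JRG21, a 4.44-fold higher one. These were the 4th and the 16th largest differences of 9335 in either direction. AT3G11180 differed by 0.149, or 1.41-fold, and AT5G05600 by 0.079, or 1.2-fold. PDF1.2 differed by -0.044, so it was slightly lower in plant 44.

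Over all probes with 1 gene, the median absolute difference was 0.036 and the 95th percentile 0.159. As large a difference as that of AT3G11180 was held by 5.84% of probes, as that of AT5G05600 by 21.0% and as that of PDF1.2 by 42.7%. A difference of 2-fold or more with plant 44 higher was found in 0.953% of probes, 89 in number, and with plant 36 higher in 0.214%, 20 in number. AT2G38240 and JRG21 were 2 of those 89, and 0 of the 5 genes were among the 20. All 4 oxygenases were higher in plant 44, as were 49.1% of the probes. The difference between the plants was part of the choice of these genes.

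**Figure D3:**
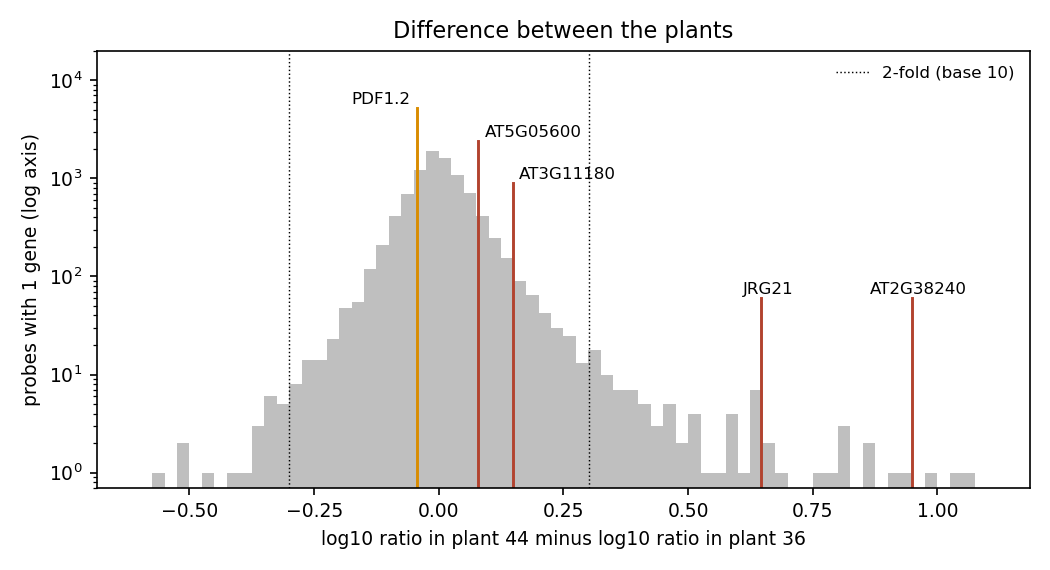
The histogram counts probes with 1 gene (vertical log axis) by their log10 ratio in plant 44 minus that in plant 36 (horizontal axis), and coloured lines mark the 5 measured genes, with line heights chosen for legibility. JRG21 at 0.647 and AT2G38240 at 0.949 lie beyond the dotted 2-fold line, and PDF1.2, AT5G05600 and AT3G11180 lie within it.

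The genes nearest to PDF1.2 in the plane of both arrays (Euclidean distance over 2 values, so a loose measure) were AT5G44380, AT5G38900, AT2G17740, AT5G47330 and AT1G36060, at distances of 0.063 to 0.202. AT5G44380, a berberine bridge enzyme-like oxidoreductase gene, lay at 1.13 in plant 44 and 1.14 in plant 36. AT5G38900 lay at 1.06 in plant 44 and 1.05 in plant 36. Just 3 other probes lay within 0.1 of PDF1.2.

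Nearest to AT2G38240 were AT2G18370, OSM34 (AT4G11650), AT2G38380, BGLU45 (AT1G61810) and AT1G68850, at distances of 0.038 to 0.199. AT2G18370 lay at 1.20 in plant 44 and 0.200 in plant 36. OSM34, an osmotin of the antifungal thaumatin-like proteins, lay at 1.15 in plant 44 and 0.294 in plant 36. BGLU45, a beta-glucosidase, lay at 1.17 in plant 44 and 0.345 in plant 36. Being higher in plant 44 was fixed by this choice of genes. Within 0.1 of AT2G38240 lay 2 probes.

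The rest of the jasmonate pathway was thinly covered by named probes. Of 81 loci in 5 lists of jasmonate synthesis, turnover, perception, wound targets and the ERF branch, 8 were measured. A test of the ratio against 0 over both plants (limma, with Benjamini-Hochberg adjustment over all 22575 probes and a threshold of 0.05) called 2 of the 8 higher and 0 lower, and at an unadjusted p under 0.05 limma had 3 higher and 0 lower. None of the probes with 1 gene passed without the empirical Bayes prior or at an adjusted p of 0.01, so each call on a named gene here rests on the prior and on the threshold of 0.05. Over all probes with 1 gene, 9.99% rose and 12.4% fell. The p-values rest on the spread between these plants, moderated by the prior toward the spread pooled over all probes. They hold no spread of wild type. The median of the 8 was 0.022, against 0.001 for all probes with 1 gene. These lists were chosen with earlier results of these data known, so the counts are a description.

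Both that rose were genes of synthesis or modification. OPCL1 (AT1G20510), a ligase that prepares jasmonate precursors for beta-oxidation, lay at 0.321 in plant 44 and 0.373 in plant 36, with a mean of 0.347 ± 0.037 (limma adjusted p = 0.0292). JMT (AT1G19640), which methylates jasmonic acid, lay at 0.142 in plant 44 and 0.129 in plant 36, with a mean of 0.136 ± 0.009 (limma adjusted p = 0.0397). AIM1 (AT4G29010), an enzyme of beta-oxidation and the third measured gene of that list, lay at 0.122 in plant 44 and 0.182 in plant 36 and did not pass. None of the 3 differed 2-fold between the plants.

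The list of perception and repression had 2 of 23 loci measured, and neither passed. These were MYC factors, so no receptor or repressor gene of this list was read. MYC3 (AT5G46760) lay at 0.022 in plant 44 and -0.002 in plant 36, and MYC4 (AT4G17880) at -0.121 in plant 44 and -0.002 in plant 36. Both encode transcription factors of the branch that drives wound genes. The single measured wound target, AT1G72290, lay at -0.042 in plant 44 and -0.073 in plant 36 and did not pass. In the ERF branch, where PDF1.2 itself belongs, neither AT5G43410, at 0.025 in plant 44 and 0.043 in plant 36, nor the thionin gene THI2.1 (AT1G72260), at -0.027 in plant 44 and -0.007 in plant 36, passed. THI2.1 is another antimicrobial gene that jasmonate induces. The list of other jasmonate turnover enzymes had 0 measured genes.

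In the ethylene list, 2 of 17 loci were measured and 1 rose. EIN3 (AT3G20770), the transcription factor at the end of the ethylene signalling chain, lay at 0.158 in plant 44 and 0.159 in plant 36 (mean 0.159 ± 0.0007, limma adjusted p = 0.0345). AT1G12010 did not pass, at 0.166 in plant 44 and 0.080 in plant 36. In the salicylate list, 1 of 19 loci was measured. This was GRX480 (AT1G28480), a glutaredoxin known to repress PDF1.2 when over-expressed, and it rose to 0.398 ± 0.013, at 0.407 in plant 44 and 0.388 in plant 36 (limma adjusted p = 0.0215). The list of camalexin genes had 0 measured.

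The relatives of both families were few as well. Of 9 further defensin loci, LCR59 (AT4G30070) alone was measured, at 0.139 in plant 44 and -0.009 in plant 36, and did not pass. Of 15 other dioxygenase loci of the same enzyme class as the oxygenases, 5 had a probe, and 2 of these rose, none fell and 3 missed the threshold, with a median of 0.121. AT4G25300 rose to 0.197 ± 0.001 (limma adjusted p = 0.0305) and AT1G17010 to 0.121 ± 0.0007 (limma adjusted p = 0.0422). In the remaining 3, AT3G13610 lay at 0.353 in plant 44 and 0.034 in plant 36, a difference of 0.319 that was the single one of 2-fold or more among the 17 measured genes of these 10 lists. Altogether 6 of the 17 rose and 0 fell in limma, against 8 higher and 0 lower at an unadjusted p under 0.05. Of all 9335 probes with 1 gene, 9.99% rose and 12.4% fell, and 2202 were higher and 2175 lower at that unadjusted p. The lists were chosen with earlier results of these data known, so nothing is read from these shares.

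**Figure D4:**
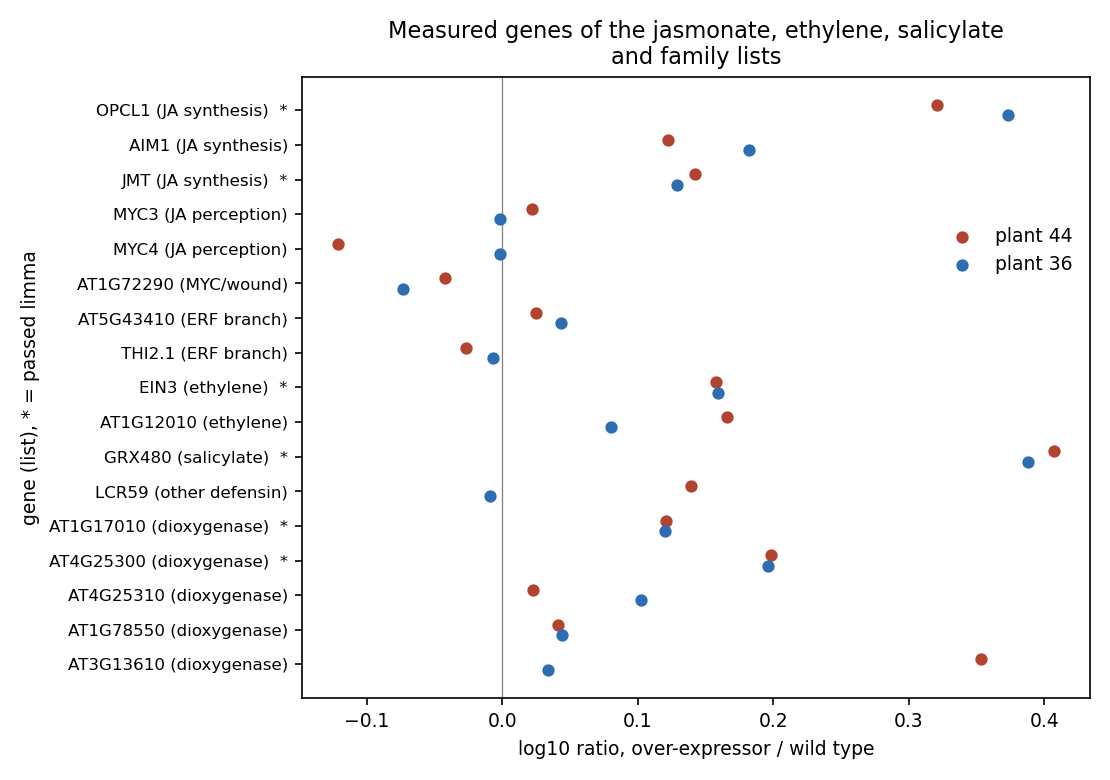
Points give the log10 ratio of over-expressor to wild type (horizontal axis) in plant 44 (red) and plant 36 (blue) for the 17 measured genes of the jasmonate (JA), ethylene, salicylate, defensin and dioxygenase lists, and an asterisk marks the 6 that passed limma. No gene lies beyond 0.407 in either plant, and AT3G13610 has the widest gap between the plants.

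The position of the genes was taken from the order of protein-coding genes in the RefSeq table of TAIR10.1. PDF1.2 and PDF1.2c are neighbours in that order, and so are PDF1.2b and PDF1.3. Among the 5 genes on each side of PDF1.2, 6 had a named probe. Of these, 2 passed in limma as higher, 0 as lower and 4 missed the threshold, against 2 higher and 1 lower at an unadjusted p under 0.05, where 9.99% of all probes with 1 gene passed as higher and 12.4% as lower. AT5G44380, 4 places away, rose to 1.13 ± 0.0099 (limma adjusted p = 0.0168), and AT5G44390, 3 places away, rose to 0.421 ± 0.016 (limma adjusted p = 0.0213). Between them and PDF1.2, AT5G44400 lay at -0.101 in plant 44 and -0.202 in plant 36, and AT5G44410 at -0.044 in plant 44 and 0.067 in plant 36. The high values thus did not run through the stretch without a break.

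**Figure D5:**
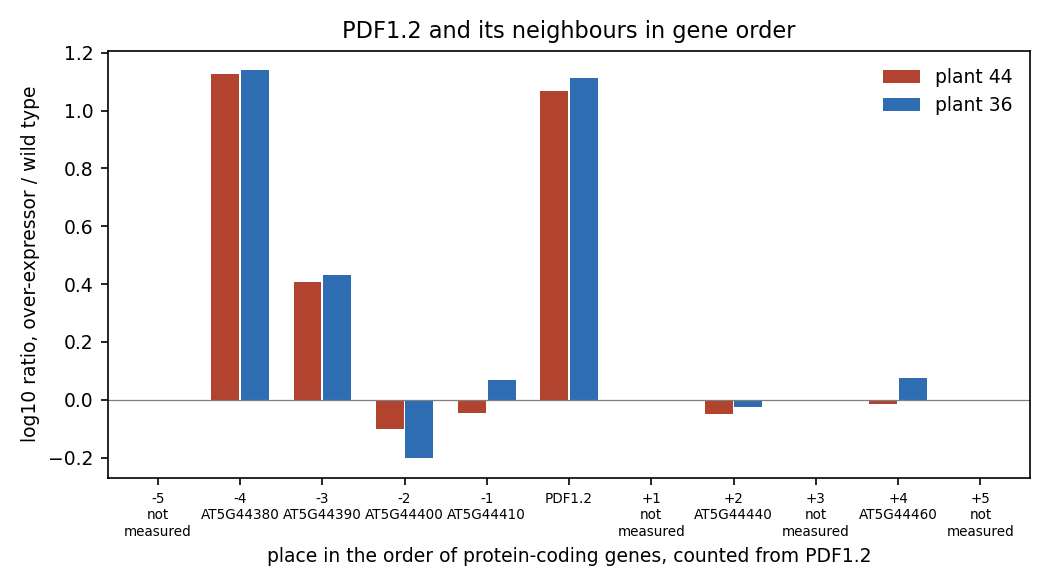
Bars give the log10 ratio of over-expressor to wild type (vertical axis) in plant 44 and plant 36 for PDF1.2 and the measured genes up to 5 places before or after it in gene order (horizontal axis, not to scale in bases). AT5G44380 stands near PDF1.2 in height, and the nearest measured gene on each side, AT5G44410 and AT5G44440, stands near 0. PDF1.2c, which is next to PDF1.2, was not measured.

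Around all 10 loci, 30 neighbours within 5 places had a probe. Of these, 4 passed as higher, 3 as lower and 23 missed the threshold, beside 9.99% higher and 12.4% lower among all probes with 1 gene. At an unadjusted p under 0.05, limma had 9 of the 30 higher and 5 lower. Of all 9335 probes with 1 gene, 2202 were higher and 2175 lower at that p. Of the 30, 0 differed 2-fold between the plants, as 1.17% of all probes did. The largest absolute difference among them was 0.143. AT2G38250, next to AT2G38240, rose to 0.368 ± 0.096 (limma adjusted p = 0.0472), at 0.436 in plant 44 and 0.300 in plant 36. The 2 measured neighbours of JRG21 and the 1 of AT5G05600 did not pass. At an unadjusted p under 0.05 in limma, 1 neighbour of each was higher. JMT is a neighbour of PDF1.4, 3 places away.

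The leaf label could not be checked by levels, since the values are ratios. Of 3 measured photosynthesis genes, LHCB4.3 fell to -0.232 ± 0.006 (limma adjusted p = 0.0286). RCA and LHCB4.1 each held -0.082 in plant 44 and -0.220 in plant 36. Each shared this pair of values with 72 other probes, including one another, so whether they are separate readings is not known. In contrast, 0 other probes shared the pair of any of the 5 genes described here. Among the 17 pathway genes, JMT and AT5G43410 each shared their pair with 1 other probe, and THI2.1 with 4. The cause was not tested. None of 4 measured root markers passed, with means between -0.078 and 0.043. PYK10 (AT3G09260) lay at -0.060 in plant 44 and -0.095 in plant 36. EXPA18 (AT1G62980) lay at -0.070 in plant 44 and -0.067 in plant 36, a pair that 1 other probe also held. At an unadjusted p under 0.05, limma had 0 of the 4 root markers higher and 2 lower. Of all 9335 probes with 1 gene, 2202 were higher and 2175 lower at that p.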

How the data were processed

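The authors deposited 1 log ratio for each of 22575 probes on 2 arrays, read here as log10 values, which is an assumption. At or above 2 lay 0 probes in plant 36 and 1 in plant 44. At or below -2 lay 1 in plant 36 and 9 in plant 44. These counts do not settle the base. Dyes are per the labels, and the authors' background correction, dye normalization, filters and array software are not stated in the sources used here. Probes were named through the platform's annotation, and 9317 of 9335 probes with 1 gene matched the TAIR10.1 RefSeq table. No sample was left out and no value was centred again.

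limma 3.58.1 in R 4.3.3 fitted an intercept per probe with empirical Bayes moderation (1 residual degree of freedom, prior 1.37), two-sided. A run on simulated probes with known changes checked only their recovery and mean estimate. It set no limit on false calls and held no dye effect, so it says nothing about the calls given here. Tables were made with pandas 2.3.3. The members and the 12 gene lists were chosen with earlier results of these data known. Genes were named by rule, namely every member with a probe, from each list up to 4 genes past the threshold with the largest absolute mean (2 where none passed), and the 5 genes nearest to PDF1.2 and to AT2G38240. AIM1, AT1G12010, AT3G13610, RCA, LHCB4.1 and the neighbours in gene order were named after their values were seen. Alternatives were centring, scaling, other priors, other probe sets, other thresholds, other fold limits, a log2 reading and each plant alone.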

Additional observations from a re-analysis of the deposited data

How the results depend on the processing

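The means of the 5 genes moved by less than the SD of the plants with centring, and with centring and scaling. With single plants, which differed widely for AT2G38240 and JRG21, PDF1.2 ranged from 1.07 to 1.11, AT5G05600 from 0.541 to 0.620, AT2G38240 from 0.211 to 1.16, JRG21 from 0.165 to 0.812 and AT3G11180 from 0.038 to 0.187. All have 1 probe, so another rule for several probes changes nothing. Calls among probes with 1 gene numbered 933 higher and 1156 lower. Centring gave 1431 higher and 1441 lower, centring with scaling 1517 and 1485, which turns the excess of lower calls round, and a fit on these probes alone 1609 and 1620. Without a prior, or at an adjusted p of 0.01, limma called 0 higher and 0 lower, although 1822 and 4377 of these probes had an unadjusted p under 0.05. The 6 calls among the 17 pathway genes also went to 0 in both settings, with 7 and 8 at an unadjusted p under 0.05. Centring, centring with scaling, and a fit on probes with 1 gene gave 7 in place of 6, with AIM1 added. These and a robust prior left the 15 genes named by rule on their side of the threshold. Differences of 1.5-fold or more numbered 263 with plant 44 higher and 121 with plant 36 higher, and of 3-fold 34 and 3. Read as log2, 2 probes and 0 of the 5 genes were 2-fold higher in plant 44, and 0 probes were 2-fold higher in plant 36. For all of these shifts the cause was not tested. Promoter motifs were not run, since no promoter sequence was used here, and calls without 1 plant were not run, since no residual degree of freedom is left. No paired analysis was possible because there was 1 group.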

Other observations

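Other antimicrobial proteins were taken by name (chitinase, osmotin, pathogenesis-related, thionin or plant defensin in the RefSeq table), a list chosen after values had been seen and given with no test. Of 23 loci with such a name, 7 were measured, PDF1.2 among them. OSM34 lay at 1.15 in plant 44 and 0.294 in plant 36. The class V chitinase gene ChiC (AT4G19810) lay at 0.484 in plant 44 and -0.144 in plant 36, on opposite sides of wild type. The chitinase gene CHI (AT2G43570) lay at 0.975 in plant 44 and 0.662 in plant 36. These 3 were the ones that differed 2-fold or more between the plants, and all were higher in plant 44, unlike PDF1.2. Among all probes with 1 gene, 0.953% differed so with plant 44 higher and 0.214% with plant 36 higher. The thionin gene THI2.2 (AT5G36910) lay below wild type in both, at -0.271 in plant 44 and -0.169 in plant 36, and PR-1-LIKE (AT2G19990) lay at 0.040 in plant 44 and -0.036 in plant 36.

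The genes nearest to the other oxygenases were looked up after the values were seen. Nearest to JRG21 was AT3G58550, at 0.751 in plant 44 and 0.118 in plant 36, and the alpha-amylase gene AMY1 (AT4G25000) lay at 0.824 in plant 44 and 0.072 in plant 36. Within 0.1 of JRG21 lay 2 other probes and within 0.1 of AT5G05600 lay 23. Within 0.1 of AT3G11180, the oxygenase closest to wild type, lay 612. Of all pairs among the 5 genes, AT2G38240 and JRG21 lay closest together, at a distance of 0.351, and PDF1.2 and AT3G11180 farthest apart, at 1.39.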
